A study of Mus musculus with 11 samples.

Results

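Of the 8 murine leukemia arrays in this series, 7 carried a high signal for Cd8a, the alpha chain of the CD8 co-receptor, and these were set against the 3 wild-type arrays across all genes. The 7 members were chosen by a measured value, a Cd8a level of at least 5 on the log2 scale, among the arrays of the exponential phase (4 of 5) and of the chronic phase (3 of 3), out of 11 arrays in all. The array left out was exponential replicate 4, with a Cd8a level of 2.96; the member closest to the threshold was chronic replicate 3, with 6.71. RNA was hybridised to a whole-transcript mouse gene array, and every level below is a log2 value on the deposited scale, where the median over all rows and arrays was 2.30 and the highest value was 13.5.

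All leukemias were T-cells of Lckpr-TCL1A+/- mice, in which human TCL1A, the oncogene of T-cell prolymphocytic leukemia, is driven in the T-lineage by the proximal Lck promoter. They were enriched splenic CD8+ T-cells. Mice of the chronic phase were 12 months old on average, with 30 to 70% tumor cells in blood and spleen. Those of the exponential phase were 15 months old on average and had tumor cell shares over 80% in blood and over 90% in spleen, their blood lymphocytes doubling every 12 days (SEM 0.8). The controls were purified CD3+ pan-T-cells from spleens of age-matched C57BL/6 mice, each array being a pool of 3 mice. The labels do not say whether a leukemia array stands for a single mouse, and p-values therefore speak only of the spread among arrays. The transgenic leukemia and the sorted fraction (CD8-enriched against all T-cells) differed at once between the groups and cannot be told apart. In such bulk RNA, fewer cells of a type and less RNA per cell cannot be told apart either.

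Mature T-cells are either CD8+ cytotoxic cells, which kill through granzymes and perforin, or CD4+ cells, which help other immune cells or, as regulatory T-cells, restrain them. The T-cell receptor signals through the CD3 chains, and costimulatory receptors such as ICOS or inhibitory receptors such as CTLA-4 set the strength of that signal. TCL1A binds AKT kinases and raises their activity, and the T-cells of the transgenic mice become a leukemia late in life.

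Cd8a itself did not set the leukemias above the controls. The 4 exponential arrays read 7.94, 8.16, 8.11 and 8.20, the 3 chronic arrays 8.12, 7.96 and 6.71, and the 3 wild-type arrays 8.31, 6.16 and 6.66. Wild-type replicate 1 thus lay above every leukemia, and "Cd8a-high" holds only against exponential replicate 4. Cd8b1, the beta chain of the co-receptor, ranged from 8.15 through a median of 9.02 to 9.21 in the 7 leukemias and read 8.38, 7.21 and 7.22 in wild type, with 4.33 in the array left out. Both genes are given without a test, since Cd8a chose the arrays and Cd8b1 encodes its partner. Cd4, which marks the other T-cell lineage, ranged from 1.79 through 2.17 to 2.59 in the leukemias and was 4.44, 4.21 and 4.62 in wild type. No leukemia came near a control, and Cd4 fell by 2.23 ± 0.16 (SE) on the log2 scale (limma, adjusted p = 4.49e-05). In exponential replicate 4, Cd4 was 5.18, above every control. Cd3d, a CD3 chain, did not separate the groups: 6.57, 7.57 and 7.83 were its lowest, median and highest leukemia levels, and wild type read 7.58, 7.45 and 6.90. The other invariant chains Cd3e and Cd3g lay below all controls in all 7 leukemias, by 0.63 and 0.54, but missed the threshold (adjusted p = 0.103 and 0.0976).

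**Figure D1:**
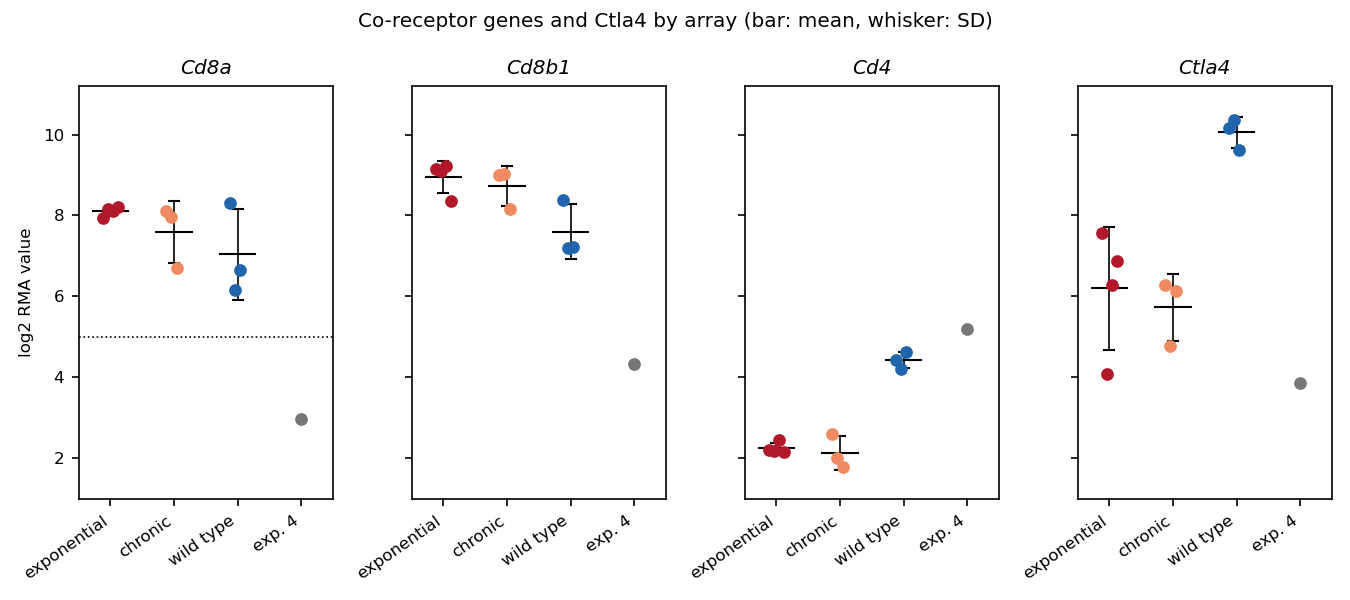
Levels of the co-receptor genes and Ctla4 in every array (vertical axis, log2 RMA value), with exponential, chronic and wild-type arrays and exponential replicate 4 as columns of points, a bar at each group mean and a whisker of 1 SD. Cd8a and Cd8b1 overlap between the 7 leukemias and wild type, while Cd4 and Ctla4 lie below all 3 wild-type arrays in all 7 leukemias; the dotted line is the Cd8a threshold of 5.

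Genes named outside the rule on size, list and range, after their values were seen, were Foxp3, Izumo1r, Il21, Pdcd1, Igf1r, Ctla2b, Ms4a4b, Ifi206, Cerkl, Nsmaf, Cd3d, Eif2s3y and Gm6377. A gene was called when its adjusted p was under 0.05 and its fold change (fc) at least 1.5. Of 19937 genes, 273 were called in the 7 leukemias against wild type, 1.37% of all genes tested, of which 123 (0.617%) were higher and 150 (0.752%) lower. The median log2 change over all genes was 0.003, and 2317 genes had an unadjusted p under 0.05. In 265 of the 273 the 7 leukemias and the 3 controls did not overlap (119 higher, 146 lower). Without regard to any test, all 7 leukemias lay above all 3 controls in 475 genes (2.38% of all genes) and below them in 452 (2.27%). The falls ran larger than the rises: 23 genes were at least 4-fold lower and 5 at least 4-fold higher, and the median change was 0.89 among genes called higher and −1.01 among genes called lower. Of the 273 calls, 72 held whichever of the 10 arrays was left out, and the count was 103 without wild-type replicate 1, 135 without wild-type replicate 3 and 177 without exponential replicate 3.

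**Figure D2:**
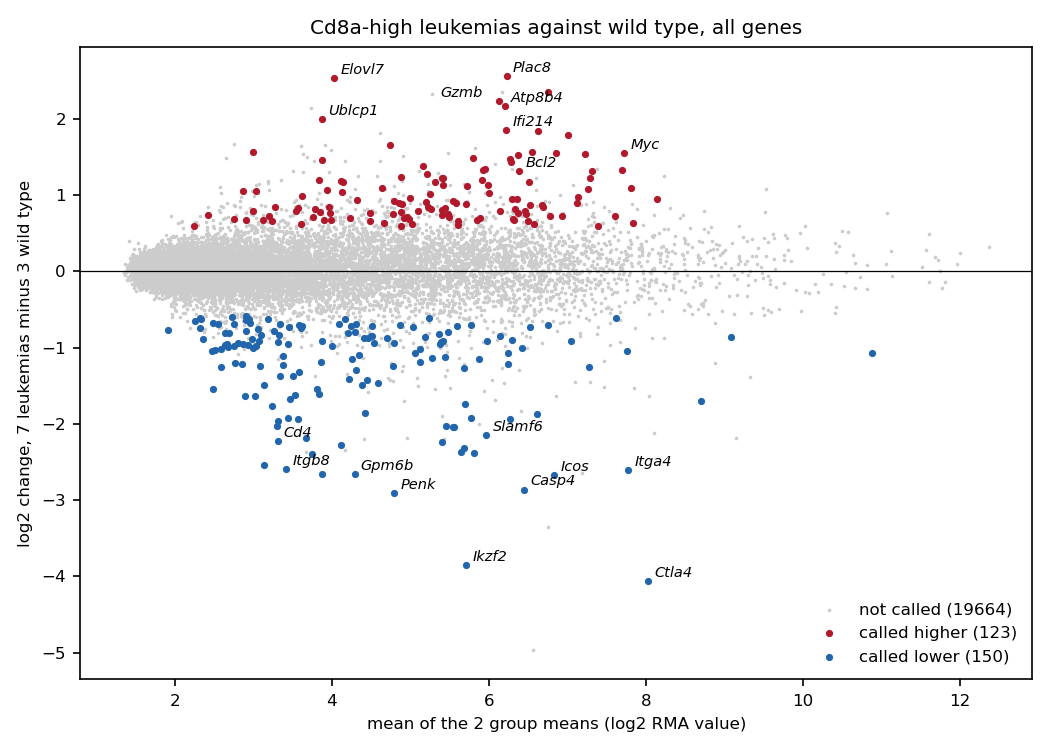
Change of every gene (vertical axis, mean of the 7 leukemias minus mean of the 3 wild-type arrays, log2) against its level (horizontal axis, mean of both group means, log2). The 123 genes called higher and the 150 called lower are coloured; the falls of Ctla4 and Ikzf2 lie apart from the rest of the called genes, and the labelled gene of the largest rise is Plac8.

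Of the 15 largest called falls, 4 were on the list of CD4 helper and regulatory T-cell genes: Ctla4, Ikzf2, Icos and Cd40lg. Ctla4, an inhibitory receptor of the CD28 family, ranged from 4.07 (exponential replicate 2) through 6.28 to 7.57 (exponential replicate 1) in the leukemias against 10.17, 10.37 and 9.62 in wild type. Every leukemia lay more than 2 log2 units under the lowest control although the leukemias themselves were spread widely, and Ctla4 was 16.6-fold lower (fell by 4.06 ± 0.60, adjusted p = 0.00732). Ikzf2, which encodes Helios, a transcription factor of regulatory T-cells, ranged from 2.67 through 4.19 to 4.29 against 7.54, 7.69 and 7.68 and was 14.4-fold lower (adjusted p = 0.000194). No leukemia overlapped the controls, and chronic replicate 2 and exponential replicate 2 (3.06) were the lowest. Icos, the costimulatory receptor encoded beside Ctla4, ranged from 4.27 through 5.72 to 6.13 against 8.23, 8.47 and 7.80 and fell by 2.67 ± 0.37 (adjusted p = 0.00458). With exponential replicate 4 (7.53) included, the adjusted p of Icos became 0.0514, whereas Ctla4 (3.85 in that array) stayed called, at 0.0132. Cd40lg, the ligand by which helper T-cells license B-cells, fell by 2.54 ± 0.20 (adjusted p = 0.000101) from 3.94, 4.73 and 4.56 in wild type to between 1.63 and 2.42.

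The 250 bases before the RefSeq start of Ctla4 are shown because it had the largest called fall; they lie at chr1:60908775-60909024 (GRCm38.p6, plus strand). No match to any of the 6 motifs searched lies in this window, so it holds no capitals.
Ctla4: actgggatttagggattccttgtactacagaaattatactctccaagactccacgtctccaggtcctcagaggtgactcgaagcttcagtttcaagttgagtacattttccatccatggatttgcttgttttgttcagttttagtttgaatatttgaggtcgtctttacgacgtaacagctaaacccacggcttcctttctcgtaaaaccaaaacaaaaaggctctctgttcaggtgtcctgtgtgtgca

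In that list, 13 of 21 measured members were called lower, against 0.752% of all genes, and none higher, with a median change of −0.95 beside 0.003 for all genes. Its summed level ranged from 7.10 through 7.95 to 8.60 in the leukemias and was between 10.49 and 11.03 in wild type, so that the groups stood apart; exponential replicate 4 was at 9.10. The list was chosen with results of these arrays known and is not independent evidence of its direction, and the part of the sorted fraction in it was not tested. Of its best-known regulatory genes, Foxp3, the lineage factor, was above the median row of 2.30 but low on a scale that reaches 13.5. It read 2.48 to 2.76 in the leukemias and 3.07, 3.32 and 3.31 in wild type, and fell by 0.64 ± 0.10 (limma, adjusted p = 0.00799). Il2ra, the high-affinity interleukin 2 receptor chain, fell by 1.76 ± 0.21 (adjusted p = 0.00163), and Nrp1, a co-receptor on regulatory T-cells, by 1.96 ± 0.20 (adjusted p = 0.00078). Izumo1r, the folate receptor 4 of regulatory T-cells, fell by 1.25 ± 0.15 in the 7 arrays but stood at 4.46 in exponential replicate 4, above every control. Among helper genes, Il21, a cytokine of follicular helper T-cells, fell by 1.64 ± 0.17 (adjusted p = 0.000821), and Ccr4, a homing receptor, by 0.95 ± 0.15 (adjusted p = 0.0105).

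Of the 17 inhibitory and costimulatory receptors measured, 8 were called lower, against 0.752% of all genes, none was higher than wild type on average, and the median change was −0.67. Of these 8, Ctla4, Icos, Tnfrsf4 and Tnfrsf18 were already counted in the CD4 helper and regulatory list, so the 2 counts are not separate. Tigit, an inhibitory receptor that binds CD155, ranged from 3.72 through 4.50 to 5.41 against 7.40, 6.65 and 6.46 and fell by 2.32 ± 0.31 (adjusted p = 0.00443). Both OX40 (Tnfrsf4, fell by 1.49 ± 0.19, adjusted p = 0.00234) and 4-1BB (Tnfrsf9, fell by 1.21 ± 0.13, adjusted p = 0.00078), costimulators of the tumor necrosis factor receptor family, were low in all 7. Pdcd1, which encodes PD-1, lay between 1.90 and 2.49 in the leukemias and at 3.00, 2.82 and 2.65 in wild type, a fall of 0.67 ± 0.13 (adjusted p = 0.0265). The leukemias were thus below the controls without overlap, but the array left out read 3.77 for Pdcd1 and the call was lost with it (adjusted p = 0.686). In the SLAM family of self-ligand receptors, 2 of 12 members were called lower, against 0.752% of all genes. Slamf6 fell by 2.15 ± 0.32 (adjusted p = 0.00725) and Slamf1 by 2.03 ± 0.21 (adjusted p = 0.00078). Among effector fate factors, 2 of 14 were called, both lower, against 0.752% of all genes. Tox, a factor of T-cell exhaustion, fell by 2.05 ± 0.23 (adjusted p = 0.00142) and Rora, a nuclear receptor of helper and innate-like cells, by 1.62 ± 0.18 (adjusted p = 0.0011). Gimap5, of a family of T-cell survival GTPases, changed by −0.28 (adjusted p = 0.317), and none of the 8 GIMAP genes measured was called.

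Of 18 integrin subunits, 4 were called lower, against 0.752% of all genes, and none higher (median change −0.22). Itgb8, the chain that with the alpha V subunit activates TGF-beta, lay between 1.95 and 2.31 in the leukemias and at 4.32, 5.05 and 4.80 in wild type and was 6.03-fold lower (adjusted p = 1.04e-05). Its partner Itgav fell by 1.14 ± 0.11 (adjusted p = 0.00056), with all 7 leukemias between 4.51 and 4.91. Itga4, a homing integrin chain, was spread over the leukemias from 4.97 (exponential replicate 2) through 6.41 to 7.67 (chronic replicate 3) against 9.19, 9.17 and 8.88 and fell by 2.60 ± 0.41 (adjusted p = 0.00954). Itgal, the alpha chain of LFA-1, fell by 0.71 ± 0.15 (adjusted p = 0.0324) and read 5.60, above every control, in exponential replicate 4.

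Among inflammatory caspases, Casp4, the caspase that senses cytosolic endotoxin, ranged from 3.52 through 5.44 to 5.79 against 7.99, 8.25 and 7.39 and was 7.27-fold lower (adjusted p = 0.012). Its neighbour Casp1, which activates interleukin 1 beta, ranged from 3.33 through 4.78 to 5.91 against 6.04, 6.91 and 6.72, leaving a narrow gap, and fell by 2.04 ± 0.44 (adjusted p = 0.0421). Exponential replicate 2 was the lowest array for both. Cxcl10, an interferon-inducible chemokine that draws activated T-cells, ranged from 2.26 through 3.23 to 3.59 against 5.60, 5.21 and 4.95 and fell by 2.28 ± 0.29 (adjusted p = 0.00253). It was the 1 call among 26 chemokine ligands (3.85%, against 0.752% of all genes called lower), a share that rests on this gene alone. Il1r2, a decoy receptor for interleukin 1, fell by 2.39 ± 0.37 (adjusted p = 0.00843), and Penk, the opioid peptide precursor made by some activated T-cells, by 2.91 ± 0.35 (adjusted p = 0.00189).

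The promoters of Cxcl10 (chr5:92348890-92349139, minus strand) and Casp4 (chr9:5308599-5308848, plus strand; the first of 2 starts in the table) are shown because both genes were among the 15 largest falls and hold matches to motifs of inflammatory gene control. Capitals mark an interferon-stimulated response match, a kappa B match (GGGNNTTCC) and an AP-1 match (TGANTCA) in Cxcl10, beginning 213, 103 and 74 bases before the start, and kappa B matches in Casp4 at 92 and 39 bases; no marked match overlaps another.
Cxcl10: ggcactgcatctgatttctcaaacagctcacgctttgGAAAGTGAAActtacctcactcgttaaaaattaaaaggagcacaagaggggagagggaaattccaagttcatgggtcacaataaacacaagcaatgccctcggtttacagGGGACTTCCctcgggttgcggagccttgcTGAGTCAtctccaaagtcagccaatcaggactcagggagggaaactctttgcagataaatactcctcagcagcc
Casp4: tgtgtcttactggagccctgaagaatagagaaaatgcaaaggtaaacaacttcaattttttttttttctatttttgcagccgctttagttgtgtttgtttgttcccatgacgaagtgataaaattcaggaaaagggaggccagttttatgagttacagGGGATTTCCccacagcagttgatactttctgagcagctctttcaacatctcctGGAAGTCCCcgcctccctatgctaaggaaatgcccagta

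Of 25 proximal signaling genes, 3 were called lower, against 0.752% of all genes, and none higher (median change −0.20). Lcp2, which encodes the adaptor SLP-76, ranged from 6.31 through 6.70 to 6.93 against 8.24, 7.77 and 7.72 and fell by 1.26 ± 0.14 (adjusted p = 0.0013). Cd5, a brake on receptor signaling, fell by 1.13 ± 0.23 (adjusted p = 0.0296), and Nfatc1, a calcium-regulated transcription factor, by 0.63 ± 0.12 (adjusted p = 0.0251). The list of 28 immediate-early and activation genes held 1 call (3.57%, against 0.752% of all genes called lower). This was the fall of Nr4a2, an orphan nuclear receptor (by 2.23 ± 0.35, limma, adjusted p = 0.00907). All 28 had a lower mean in the leukemias, with a median change of −0.52. Of them, 13 had an unadjusted p under 0.05, beside 2317 of all 19937 genes. Tnf, the inflammatory cytokine, changed by −0.56 (adjusted p = 0.212) and Cd83, an activation marker, by −0.64 (adjusted p = 0.629).

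In several other lists a single gene was called lower, against 0.752% of all genes. Hif1a, the oxygen-regulated transcription factor, fell by 1.87 ± 0.25 (adjusted p = 0.00443), with leukemias at 4.96 to 6.00 and controls at 7.58, 8.01 and 7.04, while 22 of the 23 genes on the list of Hif1a and glycolysis were not called and the median change was −0.01. Trp53inp1, a p53 target that promotes cell death, fell by 1.70 ± 0.17 (adjusted p = 0.00078) as the 1 call among 18 p53 targets. Jak2 fell by 0.91 ± 0.15 (adjusted p = 0.00974), alone among 21 JAK, STAT and SOCS genes. Igf1r, the receptor of insulin-like growth factor 1 and on none of the lists, lay between 1.83 and 2.13, under the median row, in the leukemias and at 3.28, 3.16 and 3.24 in wild type (adjusted p = 4.49e-05). Of the other largest falls, Gpm6b, a membrane glycoprotein, fell by 2.66 ± 0.16 (adjusted p = 1.91e-05), Eea1, a tether of early endosomes, by 2.37 ± 0.19 (adjusted p = 0.000101) and Arrdc3, an arrestin-domain protein, by 2.38 ± 0.43 (adjusted p = 0.0199). Of the 150 genes called lower, 27 had a leukemia mean below the median row of 2.30, where a fold change is compressed. By definition as many rows lie below the median as above it, so a low level was not particular to the falls.

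**Figure D3:**
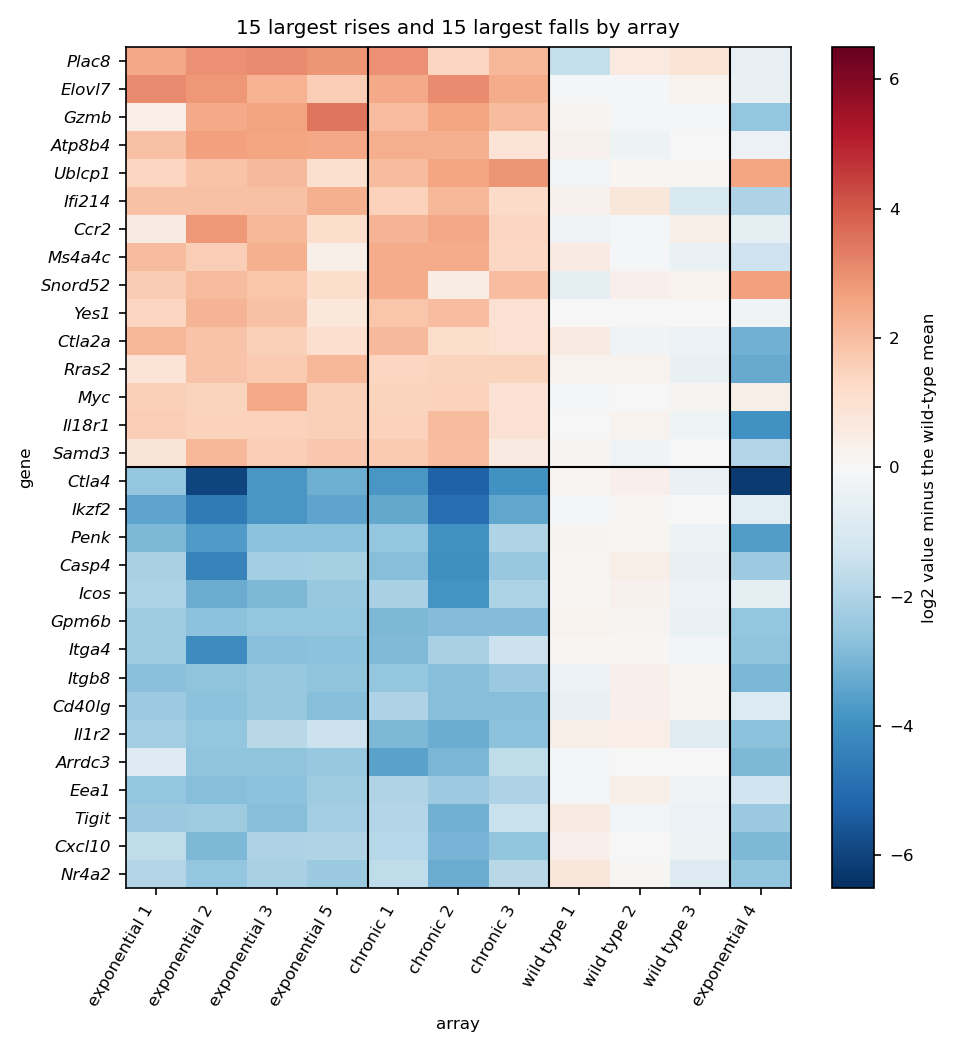
Difference of each array from the wild-type mean (colour, log2) for the 15 largest called rises above the line and the 15 largest called falls below it, by array. The falls hold across the 7 leukemias, and exponential replicate 4, the column at the far right, departs from the 7 in most of the rises.

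The rises were smaller than the falls. Gzmb, the granule protease by which cytotoxic T-cells induce death, ranged from 5.43 (exponential replicate 1) through 7.49 to 8.47 (exponential replicate 5) against 5.19, 4.95 and 4.89. The lowest leukemia was close to the controls and the others well above them, and Gzmb was 4.69-fold higher (2.23 ± 0.46, adjusted p = 0.0352). In exponential replicate 4 it read 2.48, under every control. Gzmb was the 1 call among 20 cytotoxic granule and effector genes (5.0%, against 0.617% of all genes called higher). Their median change was 0.08, or −0.12 with only the 3 leukemias that had a high Xist level. A further member, Gzmm, lay above all controls in all 7 leukemias without passing the test (1.16 ± 0.32, adjusted p = 0.117). Ccl3, on the same list, went the other way and lay below all controls in all 7 leukemias. Its mean was 4.87 in the leukemias and 6.87 in wild type, and it did not pass the test either (limma, adjusted p = 0.152). Of the 20 members, 11 had a higher mean in the leukemias and 9 a lower one. Il18r1, the receptor chain by which memory T-cells respond to interleukin 18, ranged from 7.47 through 7.98 to 8.49 against 6.47, 6.71 and 6.20 (1.53 ± 0.18, adjusted p = 0.00153), and Ccr2, a receptor for inflammatory monocyte chemokines, from 6.32 through 7.86 to 8.52 against 5.47, 5.59 and 6.07 (1.84 ± 0.41, adjusted p = 0.0465). Ctla2a, a cysteine protease inhibitor of lymphocytes, rose by 1.56 ± 0.29 (adjusted p = 0.0221) and its paralog Ctla2b by 1.19 ± 0.22 (adjusted p = 0.0223). Ctla2a and Ctla2b are closely similar genes, as are Ms4a4b (1.22) with Ms4a4c (1.79) and Ifi206 (1.32) with Ifi214 (1.85), and which of each pair carries the signal is uncertain on this array.

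The promoter of Gzmb (chr14:56262335-56262584, minus strand) is shown as that of the leading cytotoxic gene. It holds 1 AP-1 match in capitals, beginning 58 bases before the start.
Gzmb: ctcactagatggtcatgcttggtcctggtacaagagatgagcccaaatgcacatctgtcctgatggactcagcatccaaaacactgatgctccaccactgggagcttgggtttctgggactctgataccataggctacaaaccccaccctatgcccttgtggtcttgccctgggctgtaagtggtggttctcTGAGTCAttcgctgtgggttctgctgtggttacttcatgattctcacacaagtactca

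Plac8, a small cysteine-rich protein of effector lymphocytes, had the largest named rise. It ranged from 6.33 through 7.81 to 8.04 in the leukemias against 3.40, 5.61 and 5.84, and was 5.90-fold higher (adjusted p = 0.0251), with wild-type replicate 1 far under the other controls. Elovl7, which elongates saturated fatty acids, ranged from 4.36 through 5.23 to 5.85 against 2.63, 2.69 and 2.98 and was 5.76-fold higher (adjusted p = 0.000946). Every leukemia was clear of the controls by more than 1 log2 unit, and Elovl7 was the rise with the smallest adjusted p among those named by size. Atp8b4, a phospholipid flippase, rose by 2.16 ± 0.32 (adjusted p = 0.00758). Ublcp1, a phosphatase that dephosphorylates the proteasome, ranged from 3.94 through 4.94 to 5.77 against 2.68, 2.99 and 2.97 (1.99 ± 0.32, adjusted p = 0.0102), and alone among the 15 largest rises it stayed called with exponential replicate 4, at 5.46, included. Yes1, a kinase of the Src family, rose by 1.56 ± 0.28 (adjusted p = 0.0199), Rras2, a Ras-related GTPase, by 1.55 ± 0.24 (adjusted p = 0.00816), Samd3 by 1.52 ± 0.31 (adjusted p = 0.0301) and F2r, the thrombin receptor found on effector CD8+ cells, by 1.49 ± 0.20 (adjusted p = 0.00446). With each of the 10 arrays left out in turn, Elovl7, Atp8b4, Rras2 and Il18r1 were called every time, Plac8 and Yes1 in 7 of the 10 fits, Samd3 in 4, Gzmb and Ccr2 in 3 and Ms4a4c and Snord52 in 2. Of the 15 largest falls, 10 were called every time, Ctla4, Ikzf2 and Icos among them.

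Bcl2, the anti-apoptotic founder of its family, ranged from 6.53 (chronic replicate 3) through 7.13 to 7.58 against 6.17, 5.68 and 5.33. All 7 leukemias were above all controls, the array left out was not (5.41), and Bcl2 rose by 1.32 ± 0.22 (adjusted p = 0.0115). It was the 1 rise among 26 BCL2 family and caspase genes, beside the falls of Casp1 and Casp4 (11.5% called, against 1.37% of all genes). Phlpp1, a phosphatase that dephosphorylates AKT and the gene next to Bcl2 in RefSeq order, fell by 0.59 ± 0.12 (limma, adjusted p = 0.0286). It was the 1 call among 23 genes of the Tcl1 family and AKT pathway (4.35%, against 0.752% of all genes called lower). That share rests on 1 gene, and the median change of the list was −0.04. Murine Tcl1 stayed at the bottom of the scale, between 1.49 and 1.81 in the leukemias and at 1.65, 1.61 and 1.62 in wild type (0.07 ± 0.09, adjusted p = 0.863); the rows measure mouse genes, and the level of the human transgene was not analysed here. Akt1 lay above all controls in all 7 leukemias by 0.47 ± 0.12 without passing the test (adjusted p = 0.098). Atm, the DNA damage kinase that is often lost in the human disease, changed by 0.32 ± 0.15 (adjusted p = 0.472).

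Myc rose, and most genes of the lists around ribosome production had a higher mean. Myc, the growth-promoting transcription factor, ranged from 7.88 through 8.45 to 9.42 against 6.81, 6.93 and 7.10 and rose by 1.55 ± 0.24 (adjusted p = 0.00843). The top value, of exponential replicate 3, stood well above the next, 8.48, and the remaining 6 leukemias were close together and above all controls. Of 34 MYC and nucleolar MYC target genes, 4 were called higher (11.8%, against 0.617% of all genes) and none lower; 28 had a higher mean and the median change was 0.23. The other 3 calls were Gnl3 (nucleostemin, 0.81 ± 0.18, adjusted p = 0.0481), the RNA helicase Ddx21 (0.79 ± 0.13, adjusted p = 0.01) and Wdr43, a ribosomal RNA processing factor (0.73 ± 0.13, adjusted p = 0.0205). Dkc1, which modifies ribosomal RNA and stabilises telomerase, rose by 1.02 ± 0.22 (adjusted p = 0.0396), although its lowest leukemia, 4.97, overlapped the highest control, 5.07. Among 59 small nuclear and nucleolar RNAs, 50 had a higher mean with a median change of 0.51. In this list 2 were called higher (3.39%, against 0.617% of all genes), Snord52 (1.65 ± 0.36, adjusted p = 0.042) and Snord15a (0.73 ± 0.14, adjusted p = 0.0247). Rpl14 was the 1 call among 61 cytosolic ribosomal protein genes (1.64%, 50 with a higher mean, median 0.26). Mrps33 was the 1 call among 77 mitochondrial ones (1.30%, 61 with a higher mean, median 0.10). Both shares rest on 1 gene each, beside 0.617% of all genes called higher and 1.37% called in either direction. The medians of these 4 lists kept their sign under each of 3 other scalings and without each array.

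No member of the 33 G1/S or the 30 G2/M genes was called, with medians of 0.00 and 0.25. The G2/M list was summed to between 8.44 and 10.24 in the leukemias and between 8.37 and 9.05 in wild type, while exponential replicate 4 reached 11.15. No member of the 73 oxidative phosphorylation (median 0.19), 39 proteasome (0.15), 23 heat shock and unfolded protein response (−0.38) or 17 cholesterol synthesis genes (−0.07) was called. Among 28 DNA damage response genes, 1 was called higher (3.57%, against 0.617% of all genes), Xrcc6 (Ku70, 0.83 ± 0.14, adjusted p = 0.0145). Interferon response genes went both ways, with 9.4% of 32 called, against 1.37% of all genes. Ifit2 rose (0.79 ± 0.14, limma, adjusted p = 0.0199). Cxcl10 fell, as did the GTPase Iigp1 (by 1.21 ± 0.25, limma, adjusted p = 0.0319).

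Ifi206 and Ifi214, neighbouring genes of the interferon-inducible p200 family that are on no list, were both called higher. Ifi214 ranged from 6.52 through 7.22 to 7.63 against 5.57, 6.01 and 4.31 (adjusted p = 0.0145), and Ifi206 from 7.76 through 8.32 to 8.88 against 6.54, 7.89 and 6.70 (adjusted p = 0.0454), where wild-type replicate 2 overlapped the leukemias. Their promoters (Ifi206 chr1:173491319-173491568 and Ifi214 chr1:173535958-173536207, both minus strand) are shown for comparison; capitals mark in each an interferon-stimulated response match, beginning 40 and 79 bases before the start, and a TATAAA match on either strand, beginning 160 and 211 bases before it, and their longest shared run is 21 bases.
Ifi206: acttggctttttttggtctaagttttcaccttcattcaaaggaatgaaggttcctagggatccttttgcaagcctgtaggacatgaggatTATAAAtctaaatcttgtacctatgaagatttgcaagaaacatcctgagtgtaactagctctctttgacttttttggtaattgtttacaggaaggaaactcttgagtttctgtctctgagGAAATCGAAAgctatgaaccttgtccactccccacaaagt
Ifi214: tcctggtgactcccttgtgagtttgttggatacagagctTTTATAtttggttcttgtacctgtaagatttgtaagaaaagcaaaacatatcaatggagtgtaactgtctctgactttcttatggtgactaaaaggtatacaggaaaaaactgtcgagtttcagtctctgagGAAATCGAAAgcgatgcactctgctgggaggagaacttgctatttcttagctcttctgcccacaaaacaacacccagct

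Promoters of 250 bases were at hand for 102 of the 123 genes called higher, 116 of the 150 called lower and 15613 of all 19937. On either strand, AP-1 matches (TGANTCA) were in 8.82% of promoters of genes called higher, 6.03% of those called lower and 7.12% of all. Kappa B matches (GGGNNTTCC) were in 9.80%, 6.90% and 6.35%, E-boxes (CACGTG) in 6.86%, 8.62% and 8.11%, and interferon-stimulated response matches (2 GAAA separated by any 2 bases) in 2.94%, 1.72% and 3.40%. The cyclic AMP response element (TGACGTCA) was in 1.96%, 3.45% and 2.33%, and TATAAA in 8.82%, 6.90% and 12.5%. The shares of the called genes rest on 2 to 10 genes each, and a match is a description of letters only. Adjacent genes were both called in 14 of 19895 neighbouring pairs, 11 of them in the same direction, including Ctla4 with Icos, Casp1 with Casp4, Itga4 with Cerkl and Nsmaf with Tox; Bcl2 with Phlpp1 was among the 3 in opposite directions.

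**Figure D4:**
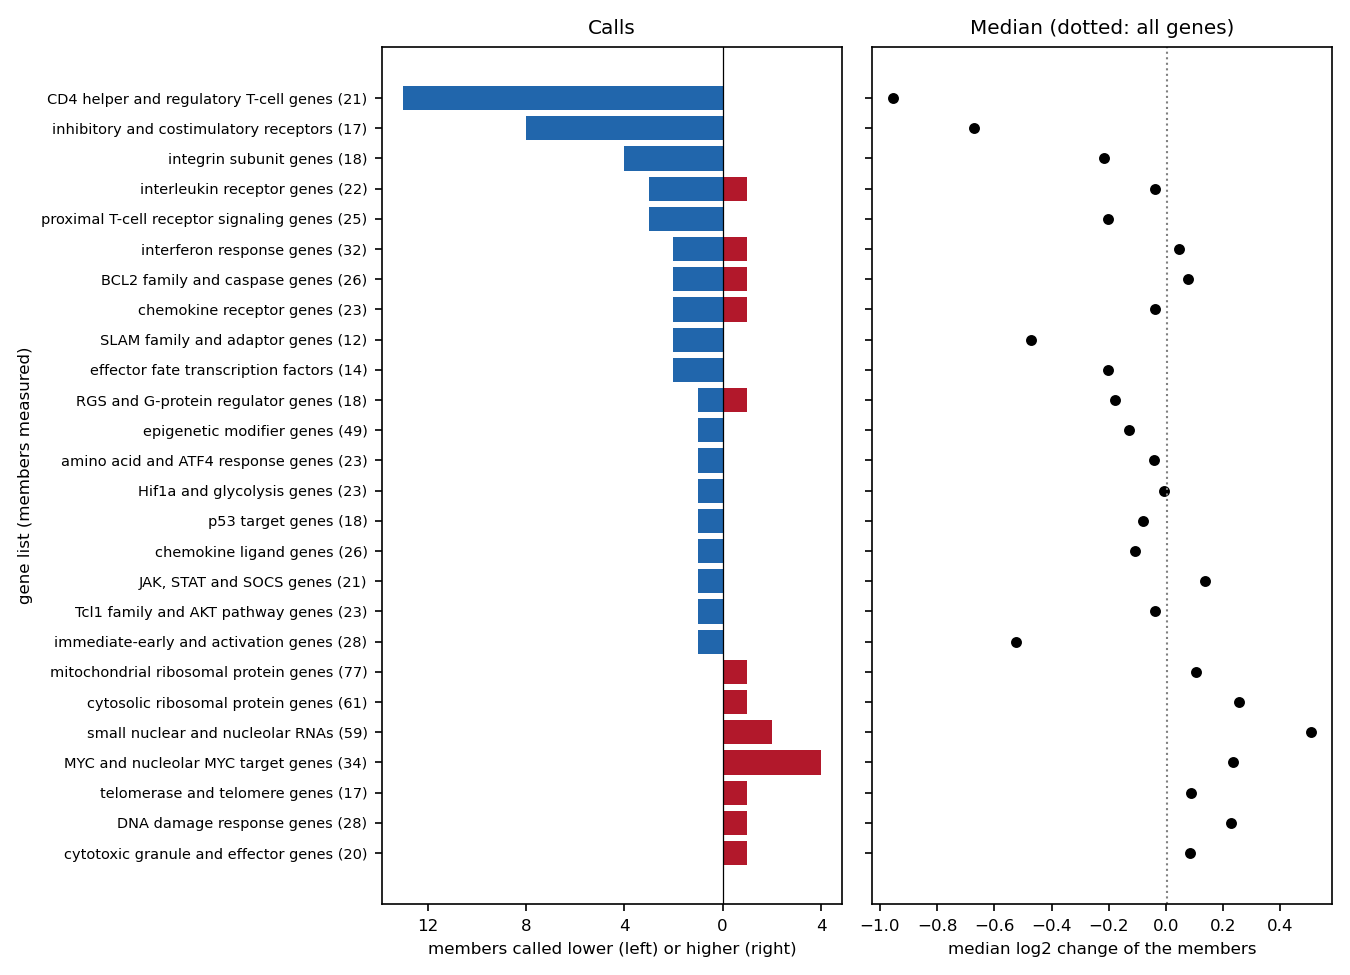
Members called lower (left bars) or higher (right bars) in each of the 26 gene lists with a called member, with the number of members measured in brackets, and beside them the median log2 change of the members (dots) with that of all genes as a dotted line. The CD4 helper and regulatory list has 13 of 21 members called lower and the lowest median, −0.95, and the small nuclear and nucleolar RNAs have the highest, 0.51.

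No gene was called between the phases. Among the 4 exponential and 3 chronic arrays, 0 of 19937 genes were called (0.00%; limma), 1411 had an unadjusted p under 0.05, and the t-test of the methods also called 0 after adjustment. The limma fit with a variance trend and robust estimation called 3, Vcam1, Il1b and Gm6377, all higher in the exponential phase. All 4 exponential arrays lay above all 3 chronic arrays in 677 genes (3.40% of all genes) and below them in 761 (3.82%). The smallest p belonged to Vcam1, the vascular adhesion molecule that splenic macrophages also carry, higher by 1.14 in the exponential arrays (adjusted p = 0.064). Lyz2, the myeloid lysozyme, differed most among the 5 genes of smallest p, at 6.05, 4.84, 5.74 and 5.86 in the exponential arrays and 2.54, 3.62 and 2.13 in the chronic ones (2.86 higher, adjusted p = 0.164); the groups did not overlap, and wild type read 2.35, 2.92 and 3.31. Il1b, the inflammatory cytokine, was higher by 1.21 (adjusted p = 0.164), Smim7 by 0.78 and Timm8a1 lower by 0.70 (both adjusted p = 0.205). The count was 15 without chronic replicate 1 and 2 without chronic replicate 3.

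Each phase was also set against wild type on its own. The 3 chronic arrays gave 91 calls (0.456% of all genes) and the 4 exponential arrays 221 (1.11%), and both comparisons share the 3 wild-type arrays. Ctla4 was lower by 4.32 in the chronic arrays (adjusted p = 0.011) and by 3.86 in the exponential ones (adjusted p = 0.027). Bcl2 was higher by 1.17 (adjusted p = 0.11) and by 1.43 (adjusted p = 0.02), and Hif1a lower by 2.19 (adjusted p = 0.034) and by 1.63 (adjusted p = 0.0074), in the same order. Gzmb was higher by 2.21 in the chronic arrays (adjusted p = 0.008) and by 2.24 in the exponential ones (adjusted p = 0.11), where 1 array was close to wild type. None of these genes was called between the phases.

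Exponential replicate 4, the array with a Cd8a level of 2.96, shared many but not all of these differences. Of the 123 genes called higher in the 7, it lay above every wild-type array in 82, between them in 8 and below every one in 33; over all 19937 genes it lay above every wild-type array in 27.0% and below every one in 24.9%, and these wild-type arrays are those that entered the calls. Of the 150 called lower, it lay below every wild-type array in 105, between them in 18 and above every one in 27. With it in the leukemia group, 144 genes were called (0.722% of all genes), 142 of them among the 273. Of the 15 largest rises 1 stayed called and of the 15 largest falls 14 did. Rras2 at 2.79, Il18r1 at 2.54 and Ctla2a at 2.67 stood in this array more than 2 log2 units under the lowest control, while Ddx21 (6.64) and Xrcc6 (4.08) lay within the range of the other 7. Itgb8 (1.76), Gpm6b (3.09) and Trp53inp1 (7.20) were as low in it as in the 7. Other falls were smaller in it: Ikzf2 (6.88), Cd40lg (3.54) and Slamf6 (6.61) lay above all 7 but under every control. Tox (6.85) lay within the controls. With this array included, Tox and Slamf6 were not called (limma, adjusted p = 0.146 and 0.0666).

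Apart from antigen receptor segments and clone names, the 5 genes with the widest range among the 7 leukemias were Car1, Klra8, Xist, Klrc1 and Klra6. Over all genes the median SD was 0.185 among the leukemias and 0.164 among the wild-type arrays. Xist, the RNA that silences an X chromosome in females, was 8.59, 7.86 and 8.88 in exponential replicates 1 and 5 and chronic replicate 3, and between 2.29 and 3.09 in the other 4 leukemias. The Y-linked Eif2s3y ran the other way, at 1.64, 1.90 and 1.86 in the first 3 and between 6.31 and 6.60 in the other 4. The wild-type pools had both. Their Xist, at 7.43, 8.86 and 8.99, was near that of the 3 Xist-high leukemias. Their Eif2s3y, at 4.70, 4.23 and 3.86, lay between its levels in those 3 and in the other 4. Alternatives chosen after these values were seen gave 28 calls with the 3 Xist-high leukemias alone and 391 with the 4 Xist-low ones alone. All 15 of the largest rises and 5 of the 15 largest falls were not called with the 3 Xist-high leukemias. In those 3 arrays, which are among the 7 that made the calls, all 273 called genes had the same sign and 253 also a difference of at least 1.5-fold. The median change of the inhibitory and costimulatory receptor list was −0.62 with the 3 and −0.64 with the 4, and that of the MYC list 0.24 and 0.37, in comparisons that share the wild-type arrays. No called gene was on the Y chromosome and 9 were on the X.

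**Figure D5:**
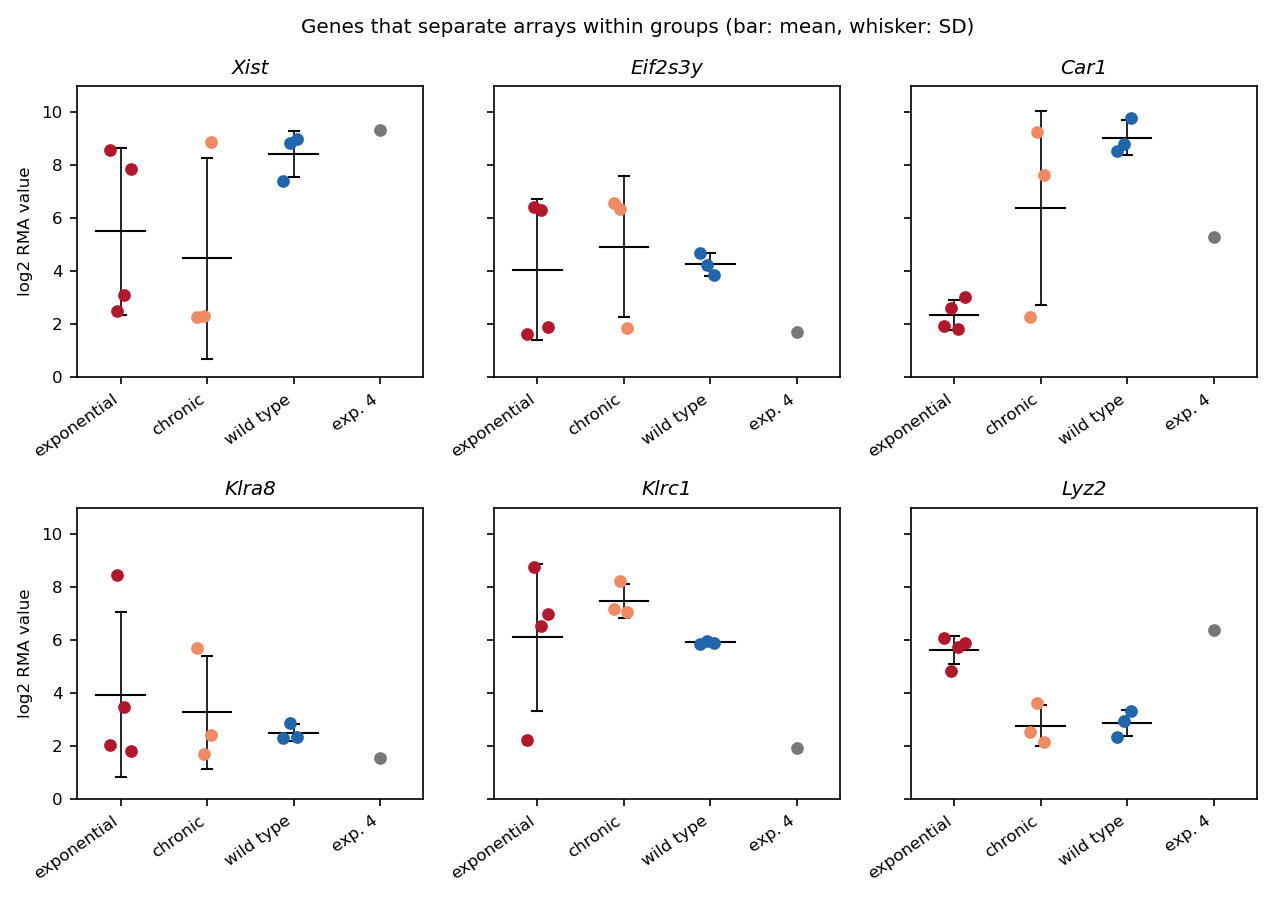
Levels in every array (vertical axes, log2 RMA value) of 6 genes that separate arrays within groups, with a bar at each group mean and a whisker of 1 SD. Xist and Eif2s3y split the leukemias into 3 and 4 arrays, Car1 is high in 2 chronic arrays and all wild-type arrays, Klra8 and Klrc1 differ from leukemia to leukemia, and Lyz2 is higher in the exponential than in the chronic arrays.

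Car1, carbonic anhydrase 1 of red cell precursors, had the widest range of all genes, 7.46 log2 units. The exponential arrays read 1.92, 2.62, 1.82 and 3.03, the chronic arrays 2.27, 9.27 and 7.63 and wild type 8.53, 8.82 and 9.79, so that 2 chronic arrays lay with the controls and the other 5 leukemias far below (−4.97 ± 1.51, adjusted p = 0.17). Klra8, an activating Ly49 receptor of natural killer cells, reached 8.45 in exponential replicate 2 and 5.71 in chronic replicate 1 and lay between 1.69 and 3.48 in the other leukemias. Klra6, another Ly49 receptor, was likewise high in the same arrays, at 7.88 and 7.43. Klrc1, which encodes NKG2A, ranged from 2.20 in exponential replicate 1 to 8.75 in exponential replicate 2 and was even in wild type, at 5.85, 5.97 and 5.89. None of 15 natural killer lectin receptors was called, and their median change was 0.23, or −0.32 in the 3 Xist-high leukemias and 0.82 in the 4 Xist-low ones.

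Markers of other cells were present in both groups, and none of them was called. B-cell markers (16 measured, 14 with a higher mean) were summed to between 6.62 and 9.83 in the leukemias and 7.05 and 9.08 in wild type. Myeloid markers (28, 22 higher) lay at 8.52 to 10.04 and 9.20 to 10.10, dendritic cell markers (13, 8 higher) at 6.37 to 7.99 and 6.94 to 7.44, and stroma and endothelial markers (15, 7 higher) at 6.03 to 6.32 and 6.23 to 6.28. Plasma cell markers were lower on average in all 10 (median change −0.72; 6.98 to 10.42 against 9.41 to 11.28), and erythroid markers in 14 of 15 (median −0.23; 6.89 to 10.10 against 9.03 to 10.17). Of the defining markers, Jchain, the joining chain of secreted antibodies, ranged from 6.24 through 8.06 to 10.20 against 9.20, 10.38 and 11.13 (adjusted p = 0.248). The part of these cells in the calls above was not tested.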

How the data were processed

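The deposited table holds log2 expression values that the authors made by RMA, which corrects background, quantile-normalizes the arrays and summarises the probes of each transcript cluster of the Affymetrix Mouse Gene 1.0 ST array; RMA is the only tool per the labels, with no version stated. The table has 34760 rows and 11 arrays. Of the rows, 21640 carry exactly 1 gene symbol in the platform annotation, 1321 several and 11799 none; rows with 1 symbol were kept, and for 954 genes with several rows the row of the highest mean was taken, giving 19937 genes. Dim rows stayed in, and no detection calls were used. Pearson correlations between arrays over all 34760 rows were 0.942 to 0.969 among the 7 leukemias and 0.929 to 0.960 between leukemias and wild type. The number of arrays limits the precision.

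Arrays were grouped by the labels and by the Cd8a threshold of 5. Groups were compared with limma 3.58.1 (lmFit and eBayes) in R 4.3.3 on the log2 values, with Benjamini-Hochberg adjustment over all 19937 genes; only the arrays compared entered a fit, with no covariate. Calls needed an adjusted p under 0.05 together with a fold of at least 1.5. Values after ± are standard errors. The summed level of a list is the log2 of the summed linear values of its members. The fit was tested on simulated data. Named genes were the 15 largest called rises and falls, up to 4 members of each list with the smallest p, the 5 genes of smallest p between the phases, the 5 of widest range among the leukemias and 11 genes set by name; T-cell receptor and immunoglobulin segments and clone names were left out. The members, the 50 gene lists and the rules were chosen with earlier results of these data known. Promoter and neighbour data came from RefSeq tables of GRCm38.p6, with the 250 bases before each start, both strands searched. Alternatives covered the arrays included, the fit, scaling, filters on dim genes, the choice of rows, the fold and the replicate number as a block; those on Xist were chosen after seeing the data.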

Additional observations from a re-analysis of the deposited data

Results flagged for a closer look

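Of 42 named genes tested, leaving out Cd8a, Cd8b1 and the 5 genes picked for their range, Myc had 1 leukemia apart from the other 6, as chance gives in about 1 gene in 20. It was 9.42 in exponential replicate 3, with the next value at 8.48, a gap of 0.608 of the whole range. Without that array the rise of Myc was 1.40 (limma, adjusted p = 0.00191), beside 1.55 with it. Over 28 settings Myc stayed called in 23. The call was lost without wild-type replicate 1 (limma, adjusted p = 0.0554) and with exponential replicate 4 included (limma, adjusted p = 0.0657). It was also lost with the adjusted t-test, with only the leukemias of Xist above 5 and with the Xist covariate, which gives the same log2 difference as those leukemias alone.

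Exponential replicate 4, which entered no comparison of the 7 leukemias, lay above every wild-type array in 82 of the 123 genes called higher (against 27.0% of all genes) and below every wild-type array in 105 of the 150 called lower (against 24.9% of all genes). The same wild-type arrays made the calls, and their part in these counts was not tested.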

How the results depend on the processing

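The 273 genes called became 144 with exponential replicate 4 included, 91 with only the chronic arrays, 174 over all rows of the table, 125 at a fold of at least 2, and 56 and 639 with the t-test of the methods after Benjamini-Hochberg adjustment and at an unadjusted p. Alternatives chosen after seeing the data gave 28 calls with only the leukemias of Xist above 5, 391 with only those of Xist below 5, and 73 with Xist as a covariate. All wild-type arrays had Xist above 5, so the covariate varied only among the leukemias. Its fit has the same log2 differences as the fit of the leukemias with Xist above 5. The covariate fit is therefore not a separate adjustment for sex, and the wild-type pools also carried Eif2s3y. Leaving out each array in turn gave 103 to 322 calls, the lowest without wild-type replicate 1. Of the genes on lists, 59 were called, and 34, 37, 19, 142, 17 and 28 under exponential replicate 4 included, chronic arrays only, the t-test adjusted, the t-test unadjusted, Xist above 5 and the Xist covariate, with 29 to 66 when an array was left out. Between the phases 0 calls became 3 with a variance trend and robust estimation, 167 with the unadjusted t-test and 0 to 15 when an array was left out. Other scalings, filters on dim genes, array weights, the 3-group fit and the mean of all rows moved the 273 calls by less than 1.5 times. The cause of these differences was not tested.

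With the replicate number as a block, 264 genes were called against wild type (212 of them also among the 273), 58 on lists and 0 between the phases; Plac8, Samd3, Snord52 and Arrdc3 were not called with the block. The labels give the numbers no shared origin; deviations of same-numbered arrays correlated at −0.05 to 0.18, over 0.1 in 4 of 9 pairs, and 5 of 10 arrays matched best with their own number, which did not reach the rule of every pair over 0.1, and the numbers were not used to pair samples. None of the 273 called genes changed sign in 30 alternatives. Several of these, such as the t-tests, the dim-gene filters and the fold settings, keep the same log2 difference, so no sign could change. The others rest mostly on the arrays that made the calls, and the count is not independent support. The medians of 18 of 50 lists took both signs over the scalings, arrays left out and Xist alternatives. Among them were natural killer lectin receptors (0.23, and −0.32 with Xist above 5) and cytotoxic granule genes (0.08 and −0.12). With 3 wild-type arrays, differences that are small beside the spread of the arrays may have been missed, and levels near the bottom of the scale have compressed fold changes.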
